A study of Mus musculus with 2 samples.

Results

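Enzymes of drug metabolism other than the cytochromes P450 were described in mouse liver RNA on 2 single-colour oligonucleotide arrays. The rule listed 9 genes by symbol and kept those with a probe set that the platform annotation assigns to 1 gene only. It kept 7 of the 9 (Ugt2b5, Sult2a2, Fmo1, Fmo5, Ces1g, Ephx1 and Ephx2), out of 8251 genes that the arrays measured in this way. Ugt1a1, the bilirubin-conjugating enzyme, was dropped because the 1 probe set that names it names 8 genes. Por, the flavoprotein that passes electrons from NADPH to microsomal P450s, was dropped because no probe set was assigned to it here. No level is given for either gene.

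Both samples were titled liver and numbered 1 and 2. They form 1 group of 2 arrays with no treatment and no control group. Both were made from commercially supplied liver total RNA with the same catalogue number, although their source field reads spleen. The labels name no strain, sex, age or number of animals, and nothing in them says that the arrays hold separate RNA preparations, so any spread between the arrays may be technical.

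A lipid-soluble drug or hormone is usually made easier to excrete in steps. Oxidases such as flavin-containing monooxygenases add oxygen, and hydrolases such as carboxylesterases and epoxide hydrolases open esters and epoxides with water. Transferases then attach a polar group: UDP-glucuronosyltransferases attach glucuronic acid and sulfotransferases attach sulfate. The liver is the main site of these reactions, and most of the enzymes sit in the endoplasmic reticulum or the cytosol of hepatocytes.

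Markers of several cell types were set beside the tissue label. The marker lists and the background genes were chosen with earlier results of these data known. The counts therefore describe the arrays and are no independent test of the label. The background genes were 95 genes typical of brain, testis, eye and skeletal muscle. A gene was called above background when its signal passed their 95th percentile on each array. That threshold fell at 384.2 array units for replicate 1 and at 363.5 for replicate 2, and 4 of the 95 genes passed it on both arrays. The percentile itself sets how many of the 95 pass on each array, so that count does not show how well the threshold works. Des was among both these 95 genes and the stellate cell markers. All 20 measured hepatocyte markers were above background, and the median of their percentiles among all genes was 99.6. Of the other markers, 8 of 10 Kupffer cell and macrophage genes, 1 of 8 endothelial, 2 of 9 stellate cell and fibroblast, 0 of 4 bile duct and 3 of 6 red cell genes were above it. Of the lymphocyte markers 1 of 13 was above it (Zap70, a T cell kinase), and of markers of kidney, lung and intestine, which also hold many of these enzymes, 2 of 15. The summed signal of the 13 lymphocyte markers was 2266 on replicate 1 and 2632 on replicate 2, of which Zap70 gave 834.3 and 880.5. That Zap70 value is from the brightest of its 3 probe sets, of suffix s. Its other sets gave 427.1 and 459.0, and 188.5 and 123.4, the last under the threshold on both arrays. Liver RNA mixes many cell types, so the number of cells of a type and the RNA per cell cannot be told apart.

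All 7 enzymes were above background on both arrays. Among all genes the share was 34.8% (2872 of 8251). The enzymes were listed with liver results in view, so this count is a description of them and no test was made. Their signals were between 5.05 and 38.6 times the threshold on replicate 1, and between 5.33 and 36.5 times it on replicate 2. By mean signal they lay between percentile 91.1 and percentile 98.95 of all genes, with a median of 96.2 against 50 for all genes. Signal brightness depends on the sequence of the probes, so a percentile gives the place of a gene among the signals of its array, not an order of the enzymes by amount of transcript.

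**Figure D1:**
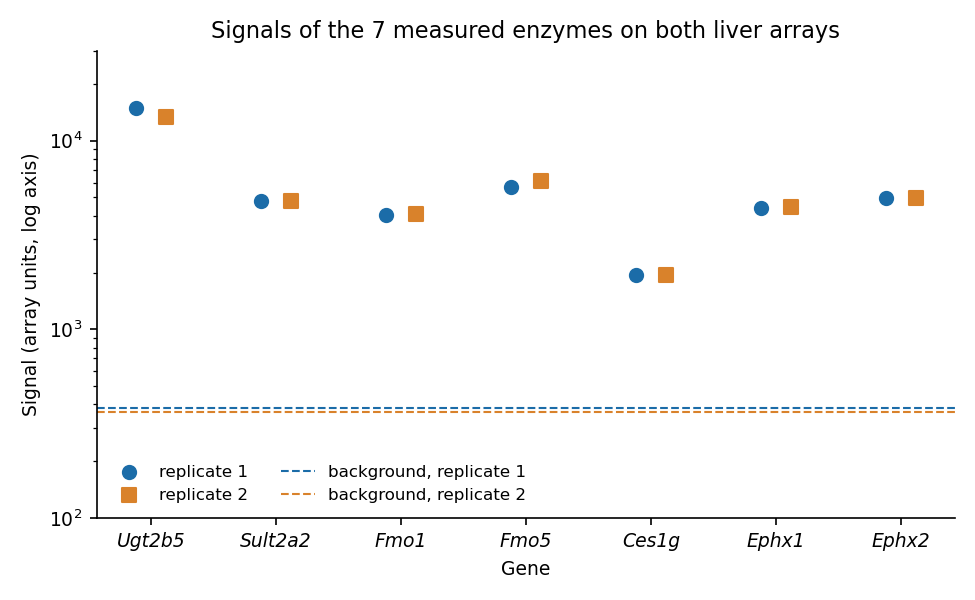
Signal of each measured enzyme (horizontal axis) in array units on a log axis, with circles for replicate 1, squares for replicate 2 and dashed lines for the background threshold of each array. All 7 enzymes lie above both lines, and the 2 points of a gene are close together, the widest gap being that of Ugt2b5 at 14827 and 13283.

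The conjugating enzymes are given first. Ugt2b5 encodes a UDP-glucuronosyltransferase of the endoplasmic reticulum that conjugates steroids and foreign compounds. Its probe set (96796_f_at) gave 14827 array units on replicate 1 and 13283 on replicate 2, a mean of 14055 ± 1092 (SD, n = 2 arrays). Replicate 2 was the lower array for this gene, by 10.4% of the signal on replicate 1. The suffix f marks a probe set whose probes can also match similar sequences of a gene family. In the RefSeq gene table of assembly GRCm38.p6, Ugt2b5 stands between Ugt2b36 and Ugt2b37 in an unbroken run of 10 genes of its family, and 2 of these 10 had a probe set of 1 gene on the array. The signal may therefore include transcripts of neighbouring copies.

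Sult2a2 encodes a cytosolic sulfotransferase that acts on hydroxysteroids and bile acids. Its probe set (104484_at) gave 4797 on replicate 1 and 4783 on replicate 2, a mean of 4790 ± 9.90 (SD, n = 2 arrays). The arrays were nearly equal for this gene. It stands between Sult2a5 and Sult2a1 in a run of 8 Sult2a genes, and it was the only 1 of the 8 that had a probe set of 1 gene, so its signal too may be shared with close copies. Sult2a genes are known for higher expression in female than in male mouse liver. Apart from Sult2a2, 2 of 7 measured genes of a female-biased list were above background here, and 7 of 8 of a male-biased list. The share among all genes was 34.8%. Serpina1e, Mup3, Mup5 and Cyp7b1 of the male-biased list were read from sets of suffix f, which can also match similar sequences. Cyp4a12b, Hsd3b5 and Cyp2d9 of that list were read from sets without such a suffix and were also above background. Cyp17a1, 1 of the 2 female-biased genes, had a second set at 10.7 on replicate 1 and 9.2 on replicate 2, under the threshold. Of 5 measured genes from a list of Y-linked genes and Xist, the transcript that silences an X chromosome, 0 were above background on both arrays, and Xist passed on replicate 1 (421.9) but not on replicate 2 (298.1). The Y-linked Eif2s3y gave 252.8 on replicate 1 and 260.5 on replicate 2. Sry gave 211.6 and 121.4 in its brighter set, and Kdm5d gave 41.1 and 9.1. The sex of the donors was not given in the labels, and its part in the Sult2a2 signal was not tested.

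The oxidising enzymes were the flavin-containing monooxygenases Fmo1 and Fmo5. Fmo1 adds oxygen to nitrogen and sulfur atoms of drugs, and its probe set (101991_at) gave 4043 on replicate 1 and 4072 on replicate 2, a mean of 4057 ± 20.5 (SD, n = 2 arrays). The 2 arrays were again close, with replicate 2 higher by 0.717%. Fmo5 is known for accepting few of the usual substrates of the family and for inserting oxygen next to a carbonyl group. Its brighter probe set (160088_at) gave 5702 on replicate 1 and 6124 on replicate 2, a mean of 5913 ± 298.8 (SD, n = 2 arrays). Fmo5 was the only kept gene with more than 1 probe set, and its sets disagreed. The other (162259_f_at, of suffix f) gave 319.8 on replicate 1 and 331.0 on replicate 2 and was not above background on either array. The call for Fmo5 therefore rests on 1 of its 2 sets. Fmo1 stands between Fmo4 and Fmo2 in a run of 5 Fmo genes, and the other 4 of that run had no probe set of 1 gene, while Fmo5 lies apart from them between Chd1l and Prkab2.

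The hydrolases were a carboxylesterase and both well-known epoxide hydrolases. Ces1g, a carboxylesterase that cleaves ester bonds of drugs and lipids, gave 1939 on replicate 1 and 1936 on replicate 2 (probe set 103519_at), a mean of 1937 ± 1.84 (SD, n = 2 arrays). It lay nearest to the threshold of the 7, at 5.05 times it on replicate 1. It stands between Ces1f and Ces1h in a run of 9 carboxylesterase genes, of which 3 had a probe set of 1 gene.

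Ephx1, the microsomal epoxide hydrolase that detoxifies reactive epoxides of foreign compounds, gave 4387 on replicate 1 and 4458 on replicate 2 (probe set 101587_at), a mean of 4422 ± 50.3 (SD, n = 2 arrays). Ephx2, the soluble enzyme that turns fatty acid epoxides into diols, gave 4954 on replicate 1 and 4950 on replicate 2 (probe set 93051_at), a mean of 4952 ± 2.62 (SD, n = 2 arrays). Both epoxide hydrolases were thus far above background on both arrays, at 11.4 to 13.6 times the threshold. Neither has a gene of the same family next to it in the gene table, where Ephx1 stands beside Tmem63a and Ephx2 beside Adam2 and Chrna2.

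The other genes of the 5 families were set beside the 7 enzymes. RefSeq lists 73 protein-coding genes with these family names, and 21 of them had a probe set of 1 gene, the 7 enzymes and 14 others. Of the 14 others 8 were above background, and their median percentile was 72.2. Among all genes the share above background was 34.8%, beside which this and the later family and list counts are to be read. No other Fmo or Ephx gene was measured by such a set. Since the 7 were listed with liver results in view, the difference between 7 of 7 and 8 of 14 was not tested.

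**Figure D2:**
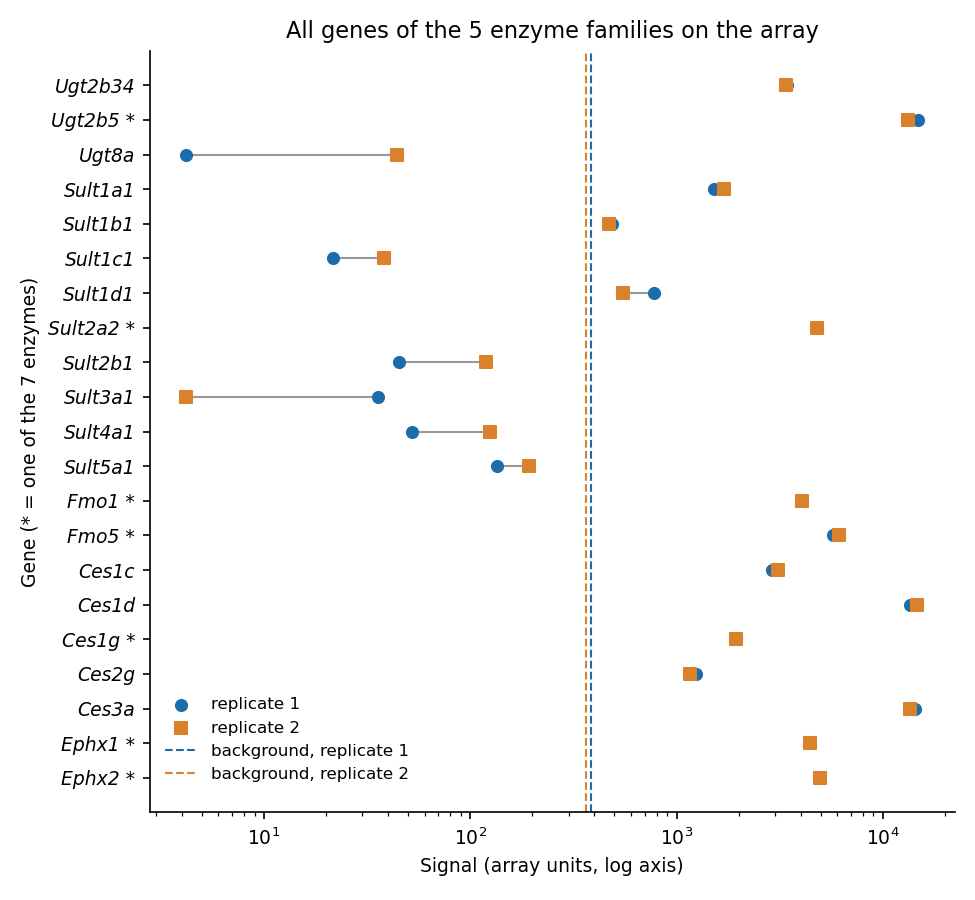
Signal in array units (horizontal log axis) of the 21 genes of the Ugt, Sult, Fmo, Ces and Ephx families with a probe set of 1 gene, with circles for replicate 1, squares for replicate 2, a grey line joining them and dashed lines for the background thresholds. The 15 genes above background differ by at most 1.41-fold between the arrays (Sult1d1), whereas several of the 6 below it, such as Ugt8a at 4.20 and 43.9, are far apart.

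The carboxylesterases were above background in 5 of 5 measured genes. Ces1d, which hydrolyses stored triglyceride as well as drugs, gave 13550 on replicate 1 and 14609 on replicate 2 in one probe set and 13472 and 13412 in the other. Its sets agreed closely, but both carry suffixes for probes that may match other copies. Ces3a, another hepatic carboxylesterase, gave 14363 on replicate 1 and 13612 on replicate 2. Ces1c, an esterase secreted into mouse plasma, gave 2897 and 3116, and Ces2g gave 1242 and 1164. These 4 genes and Ces1g were above the threshold on each array without exception.

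The sulfotransferases were split, with 4 of 9 above background, beside 34.8% of all genes. Sult1a1, which sulfates phenols, gave 1517 on replicate 1 and 1695 on replicate 2, while its other probe set, of suffix r, gave 4.40 and 4.70. Sult1b1, which acts on thyroid hormone and phenols, gave 483.7 and 469.4, and Sult1d1, which acts on catecholamines, gave 774.8 and 551.1. Together with Sult2a2 these were the members of the family above background. The other 5 (Sult1c1, Sult2b1, Sult3a1, Sult4a1, a brain form, and Sult5a1) gave between 4.20 and 193.0 on either array and were not above it.

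Of 3 measured glucuronosyltransferase genes 2 were above background. Ugt2b34, of the same run as Ugt2b5, gave 3415 on replicate 1 and 3389 on replicate 2. Ugt8a, which makes galactosylceramide for myelin and is no drug enzyme, gave 4.20 and 43.9 and was not above it. Signals this low varied widely between the arrays, and a level under the threshold does not show that a transcript was missing.

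The genes that supply the cosubstrates were measured next. For glucuronidation, 4 of 5 genes were above background. They include Ugdh, which oxidises UDP-glucose to UDP-glucuronic acid (3562 on replicate 1 and 3142 on replicate 2), Slc35d1, which carries that sugar nucleotide into the endoplasmic reticulum (1451 and 1382), and Ugp2, which makes UDP-glucose (653.7 and 663.6). Gusb, the lysosomal enzyme that removes glucuronic acid, was the 1 gene not above it (290.5 and 259.3). For sulfation 6 of 7 genes were above background, among them Papss2, which makes the sulfate donor PAPS (776.2 and 807.3), the Golgi PAPS carrier Slc35b2 (965.0 and 1017) and the sulfate transporter Slc26a1 (799.0 and 737.7). The exception was Bpnt1, a phosphatase that clears the spent donor, at 6.90 and 50.6 in a probe set of suffix r. Genes of both lists were thus above background alongside Ugt2b5 and Sult2a2. The 6 of sulfation lay close to the threshold. They ran from 1.03 times it for Arsa on replicate 1 to 2.80 times it for Slc35b2 on replicate 2. With the threshold at the 99th percentile, 996.6 on replicate 1, even Slc35b2, the brightest of them, would not pass. Of the glucuronidation genes, Ugp2 (1.70 times the main threshold on replicate 1 and 1.83 on replicate 2) and Galt (1.99 and 1.51) were as close. Neither would pass at the 99th percentile, whereas Ugdh and Slc35d1 would.

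Although Por itself was not analysed here, 6 of 9 genes of related electron transfer were above background. Cyb5a, cytochrome b5, gave 16375 on replicate 1 and 17544 on replicate 2. Cyb5r3, the reductase of cytochrome b5, gave 3978 and 3866, and Pgrmc1, a haem-binding membrane protein that associates with P450s, gave 12550 and 12198. Hmox2, a haem oxygenase that takes its electrons from Por, gave 165.8 and 233.6 and was not above background.

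Broader enzyme lists outside the 5 families, which hold enzymes of drugs together with enzymes of the body's own compounds, were above background in 6 of 8 transferase genes, 8 of 11 oxidoreductase genes and 9 of 10 hydrolase genes. Among the transferases, the methyltransferases Gnmt, which acts on glycine (21431 on replicate 1 and 22827 on replicate 2), Inmt, which acts on amines (16413 and 15121), and Gamt, which makes creatine (4581 and 4426), had the highest percentiles, and Nat1, an arylamine acetyltransferase, the lowest (93.9 and 13.6). Among the oxidoreductases these were the alcohol dehydrogenase Adh1 (22498 and 23829), Akr1c6 (17877 and 17883) and Akr1a1 (9266 and 9499), and the quinone reductase Nqo1 was lowest (98.0 and 90.9). Among the hydrolases they were Pon1, the paraoxonase (16912 and 17779), Cel (4192 and 3867) and Lypla1, which removes fatty acids from proteins and lysophospholipids (2439 and 2291), and Bche, butyrylcholinesterase, was lowest (156.0 and 53.0). Nqo1 and Bche were each under the threshold on both arrays, as was Nat1. The Lypla1 value is from the brightest of its 5 probe sets, and its dimmest gave 229.2 and 220.3, under the threshold on both arrays.

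Of 12 measured transcription regulators of these pathways 8 were above background. Cebpa, a hepatocyte transcription factor, gave 9564 on replicate 1 and 10542 on replicate 2, and Hnf4a, a nuclear receptor that maintains hepatocyte identity, gave 1454 and 1602. Nr1i3, the xenobiotic sensor CAR, gave 3765 and 4402 in its brightest probe set. The other sets of Nr1i3 gave 4123 and 3764, and 2466 and 2989, so all 3 were above background. Keap1, the repressor of the antioxidant regulator Nfe2l2, was lowest (36.1 and 12.9).

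The last comparison was between the 2 arrays. Log2 signals of replicate 2 minus replicate 1 were taken after subtracting the median difference of the brighter 50% of probe sets, which was -0.0058. None of the 7 enzymes differed by over 2-fold (0 of 7). Of 4818 genes in the brighter 50%, 1.97% did, and of the 825 genes in the brightest of 10 signal bins, which holds all 7, 0% did. Each side of this comparison is a single array, so the differences have no error of their own and no p-value was computed.

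The median log2 difference of the 7 enzymes was 0.0047, beside 9.8e-05 for all genes of the brighter 50% and -0.015 for all genes. The value for the brighter 50% is near no difference by construction, because the shift was taken from probe sets of that range. The widest were those of Ugt2b5 (-0.15) and Fmo5 (0.11). In the brightest signal bin the median size of the difference was 0.091 and its SD 0.16, and Ugt2b5 and Fmo5 lay within 1 SD. For Ugt2b5 the difference was -0.20 with quantile normalization and -0.17 with the shift taken from the brightest 25% of probe sets, both larger in size than that SD, which was not recomputed after quantile normalization. The remaining 5 enzymes lay closer than that median, from 0.0016 for Sult2a2 to 0.029 for Ephx1.

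As deposited, the signals of 5 of the 7 enzymes (Sult2a2, Fmo1, Ces1g, Ephx1 and Ephx2) agreed within 2% between the arrays. That held for 18.5% of the genes of the brightest bin and for 10.5% of the brighter 50%. The limit of 2% was chosen after the values were seen, and the count was 2 of 7 after quantile normalization, against 18.7% of the bin. Within 5% it was 5 of 7 as deposited and 6 of 7 after quantile normalization, against 40.4% and 45.6% of the bin. No test of this closeness was made.

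**Figure D3:**
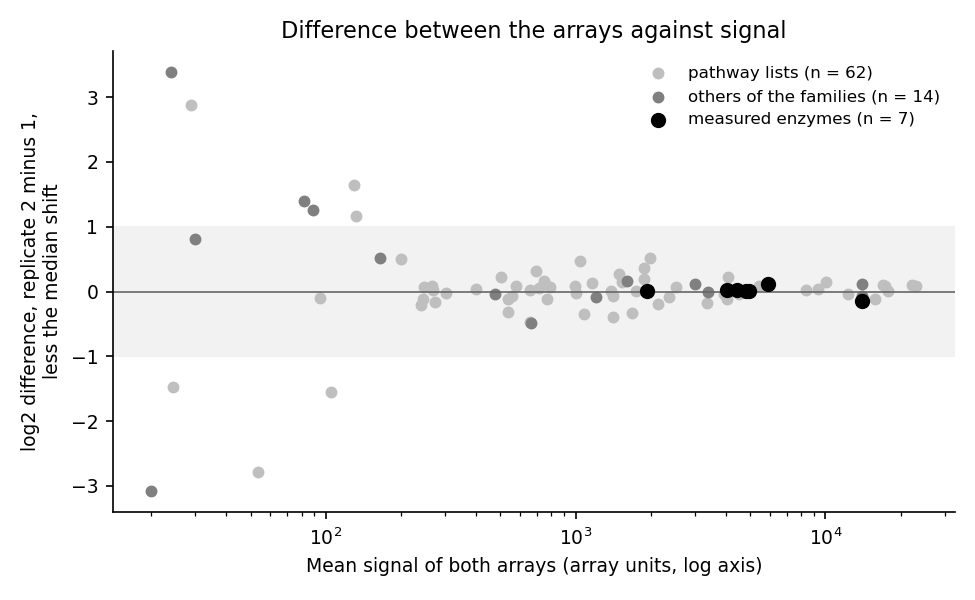
Log2 difference between the arrays (replicate 2 minus replicate 1, less the median shift) against the mean signal on a log axis, with black points for the 7 enzymes, dark grey for 14 other genes of their families and light grey for 62 genes of the pathway lists. The grey band marks 2-fold in either direction. The 7 black points lie between -0.15 and 0.11, and the points outside the band are all at the dim end.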

How the data were processed

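The deposited values are signal intensity on a linear scale, 1 per probe set and array, for 12488 probe sets on 2 arrays. No source used here states how the authors summarised and scaled them, or with which software. The mean after trimming 2% at each end was 500.5 on both arrays. Median signals were 163.2 and 157.7, and 2 arrays limit the precision of every value. The platform annotation named 1 gene for 10855 probe sets, several for 396 and none for 1237. Of the 10855, 10839 matched a RefSeq table (GRCm38.p6) and 0 symbols changed. No coordinates are given, since the annotation names no build. The 66 control sets were left out.

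A gene was read from its brightest probe set by mean log2 signal. With 1 group no test was possible. The members, the 19 gene lists and the background genes were chosen with earlier results of these data known. Named are all kept members and every gene of their families. Also named are the 3 highest and the lowest gene of each supply, electron transfer, broader enzyme and regulator list. Zap70, Arsa, Galt and the genes named from the sex-biased lists and the list of Y-linked genes and Xist were named after their values were seen. Alternatives covered normalization, shift, pseudocount, probe set choice, threshold and each array alone. Steps were tested on simulated data with the same noise at all signal levels and changes planted in brighter genes only. On these arrays the SD of the log2 difference ran from 0.16 in the brightest bin to 1.38 in the dimmest. The simulation therefore checks the code and not the calls. Tables were computed in Python 3.11.15 with pandas 2.3.3, numpy 2.4.6 and scipy 1.17.1, and plots with matplotlib 3.10.9.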

Additional observations from a re-analysis of the deposited data

Results flagged for a closer look

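A probe set of suffix s that stands outside the comparisons carried signal. It names 8 genes of the Ugt1a locus, Ugt1a1 among them, so it measures none of them alone. It gave 16836 on replicate 1 and 18086 on replicate 2, a mean of 17461 ± 883.6 (SD, n = 2 arrays), above background on both. Which of the 8 transcripts gave this signal was not tested.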

How the results depend on the processing

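The count of 7 enzymes above background was the same when all probe sets of a gene were averaged, and at the 99th percentile. It was also 7 on each array alone, which follows from the call on both arrays. It was 7 too with thresholds at the 90th percentile, the highest Bacillus or yeast control, or the array median. These thresholds lie below the main one, so they could not lower the count. Without the suffixed probe sets (f, s, r, i or g) it was 6 of 6, because Ugt2b5 has no other set. The median percentile of 96.2 was 96.7 with averaged probe sets, 96.4 without suffixed sets, and 96.15 to 96.25 with 1 array left out. The changes with averaged and without suffixed probe sets and on replicate 2 alone exceeded the spread of 0.069 between the arrays, and that on replicate 1 alone did not. The median log2 difference ran from -0.036 (quantile normalization) to 0.027 (shift from all probe sets), a small value whose sign changed with the setting. The count of enzymes over 2-fold was 0 in all 7 alternatives tried. Of 41 alternative values of single mean log2 signals, 6 moved by more than 1 SD, 1 of them for Fmo5 (12.53, and 10.44 with the mean of its sets). Many of the 41 could not move, so this share says little about stability. Leaving out 1 of 2 arrays always moves a mean by less than 1 SD. Averaging changes nothing for the 6 enzymes with 1 probe set, and leaving out suffixed sets changed no gene that was kept. The count within 2% was 4 after the median shift and 2 after quantile normalization, and with the deposited values it was 4 at a limit of 1% and 5 at 5% (6 at 5% after quantile normalization); these settings were chosen after seeing the data. No paired analysis was possible because the labels give only 1 group. Background correction could not be repeated from summarised signals, and it can change low values in particular.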
